A study of Mus musculus with 2 samples.

Results

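Satellite glial cells (SGCs) of the mouse dorsal root ganglion (DRG) were ranked from one end of their transcriptional range to the other, and the 1911 cells with the most *Acsbg1*, *Cnmd*, *Hes5*, *Aldoc* and *Fads2* RNA relative to their *Slc35f1*, *Kcnh8*, *Lrrc4c*, *Ncam2* and *Lgr5* RNA are described here. They were chosen by these 10 measured values, and were 1911 of the 5735 SGCs and of the 16346 barcodes that passed the quality steps (over 300 genes, at least 2000 UMIs and a mitochondrial share of at most 22%). A barcode was taken as an SGC when *Fabp7*, the fatty acid binding protein that marks these cells, reached 50 UMIs per 10,000 and when none of *Ncmap*, *Scn7a*, *Col1a1*, *Rgs5*, *C1qa* and *Flt1* had more than 2 UMIs. A UMI is a molecular identifier that counts 1 captured RNA molecule. The SGCs of each sample were then ordered by the UMIs of the first 5 genes plus 1, divided by the UMIs of the other 5 genes plus 1, and cut into 3 groups of near equal size, here called terciles. The top, middle and bottom tercile held 953, 954 and 953 cells in replicate 1 and 958, 959 and 958 cells in replicate 2, and the top tercile is the subject. These genes chose the cells, so their values are given only as a description and were left out of every test.

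Both samples were L4 and L5 DRGs of naive, female C57BL/6 mice aged 3 months, with no treatment, transgene or injury. The ganglia were digested with papain and collagenase, live cells were sorted by a dye, and 3′ libraries were made on the 10x Chromium system. The study describes the samples as biological replicates. How many animals went into each is not given in the sources used here, and p-values measure the spread between these 2 samples. The libraries held 119101743 and 128668771 UMIs, and the cells of the top tercile contributed 16994535 and 17362022 of them. Wherever a pair of values is given below, the first is replicate 1 and the second replicate 2.

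SGCs wrap the cell body of each sensory neuron and are coupled to each other by gap junctions. They take up potassium and glutamate around the neuron, make cholesterol and other lipids, and express a set of genes in common with astrocytes of the central nervous system, among them water channels, glutamine synthetase and apolipoprotein E. They arise from the neural crest, as Schwann cells do, and Notch signalling is known to favour the satellite fate over the neuronal one. The ranking genes belong to some of the same pathways. *Hes5* is a Notch target, *Aldoc* a glycolytic aldolase, *Fads2* a fatty acid desaturase and *Acsbg1* an enzyme that activates long fatty acids, so the lists for these pathways below are close in kind to what chose the cells.

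The label was held against 14 SGC markers that did not enter the ranking. All were detected in the top tercile, but so were they in every other kind of barcode and in droplets without a cell. Their summed level in the top tercile was 84500 and 83660 CPM (counts per 1000000 UMIs), of which *Apoe*, a lipid carrier, made up 75390 and 74770 (without further scaling). The bottom tercile had 59750 and 59570 CPM of the same markers, most of it again *Apoe*. Without *Apoe* the sums were 9102 and 8888 CPM in the top tercile and 9622 and 9288 CPM in the bottom tercile. Of the 14 markers, 8 were higher and 4 lower in the top tercile than in the bottom tercile, by the test described below. These were 57.1% and 28.6%, beside 16.7% and 16.2% of all genes. The lower ones were *Cdh19*, *Erbb3*, *Sox10* and *Ednrb*. *Bcan*, the proteoglycan brevican, was at 615.8 and 646.4 CPM in the top tercile and at 40.5 and 44.7 CPM in barcodes with *Ncmap*, a gene of myelinating Schwann cells. The lowest ratio inside the top tercile was 0.4419 and 0.4935, and the highest in the middle tercile was 0.4419 and 0.4933. Median *Fabp7*, which the selection used, was 125 and 130 per 10,000 UMIs in the top tercile and 87.4 and 88.9 in the bottom tercile.

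Depth differed along the ranking. The median cell of the top tercile had 17440 and 18247 UMIs and 4574 and 4748 genes, that of the middle tercile 16611 and 17516 UMIs, and that of the bottom tercile 12331 and 13231.5 UMIs and 3867 and 4077 genes. Mitochondrial RNA was 9.29% and 8.70% of the UMIs in the median cell of the top tercile against 7.86% and 7.38% in the bottom tercile. More than 2 UMIs of a neuronal gene (any of *Tubb3*, *Stmn2*, *Snap25*, *Uchl1*, *Nefl*, *Prph* and *Calca*) were seen in 6.40% and 8.98% of the top tercile and in 3.88% and 3.45% of the bottom tercile. A UMI of *Pou3f1*, a transcription factor of Schwann cell precursors and promyelinating cells, was seen in 5.14% and 4.80% of the top tercile and in 16.8% and 16.3% of the bottom tercile. Droplets without a cell had 82.3 and 84.4 CPM of *Pou3f1*, above the 29.0 and 30.1 CPM of the bottom tercile (without further scaling). The samples shared 18 cell barcodes among those passing the quality steps and 1 among the cells of the top tercile. Without the shared barcodes 950 and 956 cells remained in it.

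UMIs were summed over the cells of each tercile in each sample, and the sums of 14398 genes were compared between terciles by the quasi-likelihood method of edgeR, with Benjamini-Hochberg adjusted p-values and a threshold of 0.05. Against the bottom tercile, 2402 genes were higher in the top tercile (16.7% of the genes tested) and 2331 were lower (16.2%). Against the middle tercile, 544 genes were higher (3.78%) and 518 lower (3.6%). The middle tercile lay between the others in both samples for 2075 of the 2402 higher genes and for 1902 of the 2331 lower ones. These were 86.4% and 81.6%, beside 17.1% of the 9665 genes called in neither direction. The genes were called for the gap between top and bottom in these same profiles, which by itself favours a middle value in between. Most differences were small: the median change was 1.31-fold in both directions, and 292 genes were over 2-fold higher and 310 over 2-fold lower. Read against library size alone, without TMM scaling, the split was 1746 higher and 3383 lower, so that 34.04% of the calls were higher instead of 50.75%. With the sample as a block, 1339 genes were higher and 1297 lower than in the middle tercile.

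Genes of cholesterol synthesis were nearly all higher in the top tercile. Of 24 genes tested, 22 were higher and 1 lower than in the bottom tercile, beside 16.7% and 16.2% of all genes, and the median of the list was 0.77 on the log2 scale, beside -0.02 for all genes. *Tm7sf2*, a sterol reductase, had 169.5 and 169.8 CPM in the top tercile, 131 and 127 CPM in the middle tercile and 62.6 and 68.1 CPM in the bottom tercile (log2 fold change 1.37 ± 0.05 SE, adjusted p = 1.13e-07). The samples of the 3 terciles did not overlap. From here on CPM is given after TMM scaling, which corrects library size for composition, and each ± value is an SE on the log2 scale over 2 samples a tercile. *Mvd*, which makes isopentenyl diphosphate from mevalonate diphosphate, was 1.11 ± 0.06 higher (182 and 186 CPM against 83.0 and 88.1 CPM). *Fdps*, the farnesyl diphosphate synthase, had 1302 and 1346 CPM in the top tercile and 657 and 720 CPM in the bottom tercile, and *Sc5d*, a late sterol desaturase, had 347 and 338 CPM against 197 and 202 CPM. *Hmgcs1*, the synthase at the start of the pathway, had 2065 and 2151 CPM in the top tercile, 1805 and 1918 CPM in the middle tercile and 1188 and 1354 CPM in the bottom tercile (0.73 ± 0.06, adjusted p = 6.29e-06). *Lss*, lanosterol synthase, was 0.90 ± 0.05 higher. Against the middle tercile 19 of the 24 members were still higher and none lower, beside 3.78% and 3.6% of all genes.

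*Srebf2*, the transcription factor that switches the pathway on, was the member that passed in neither direction, with 172 and 157 CPM against 165 and 162 CPM (0.01 ± 0.05, adjusted p = 0.94). The list had 21 or 22 higher members under each of the alternatives run with a test, among them the rankings by either set of 5 genes alone.

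Sterol-responsive promoters are known to carry sterol response element letters, so the sequence before the *Hmgcs1* start is shown with the match in capitals. It spans chr13:119690101-119690350 on the plus strand of GRCm38.p6, from RefSeq, and the capitals mark TCACNCCAC, found once, 129 to 137 bases before the start.
Hmgcs1: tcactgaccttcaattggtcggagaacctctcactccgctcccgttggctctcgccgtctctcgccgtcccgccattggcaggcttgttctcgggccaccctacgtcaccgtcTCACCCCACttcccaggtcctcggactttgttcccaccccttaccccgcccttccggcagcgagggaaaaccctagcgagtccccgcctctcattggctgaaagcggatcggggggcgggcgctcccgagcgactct
These letters, searched on both strands of the 250 bases before the start, were in 1 of the 17 cholesterol genes with a promoter in the table and in 1.17% of the 10812 promoters of tested genes. A match is a description of the letters and no evidence of binding, and its absence from the other windows says only that these letters were not there.

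**Figure D1:**
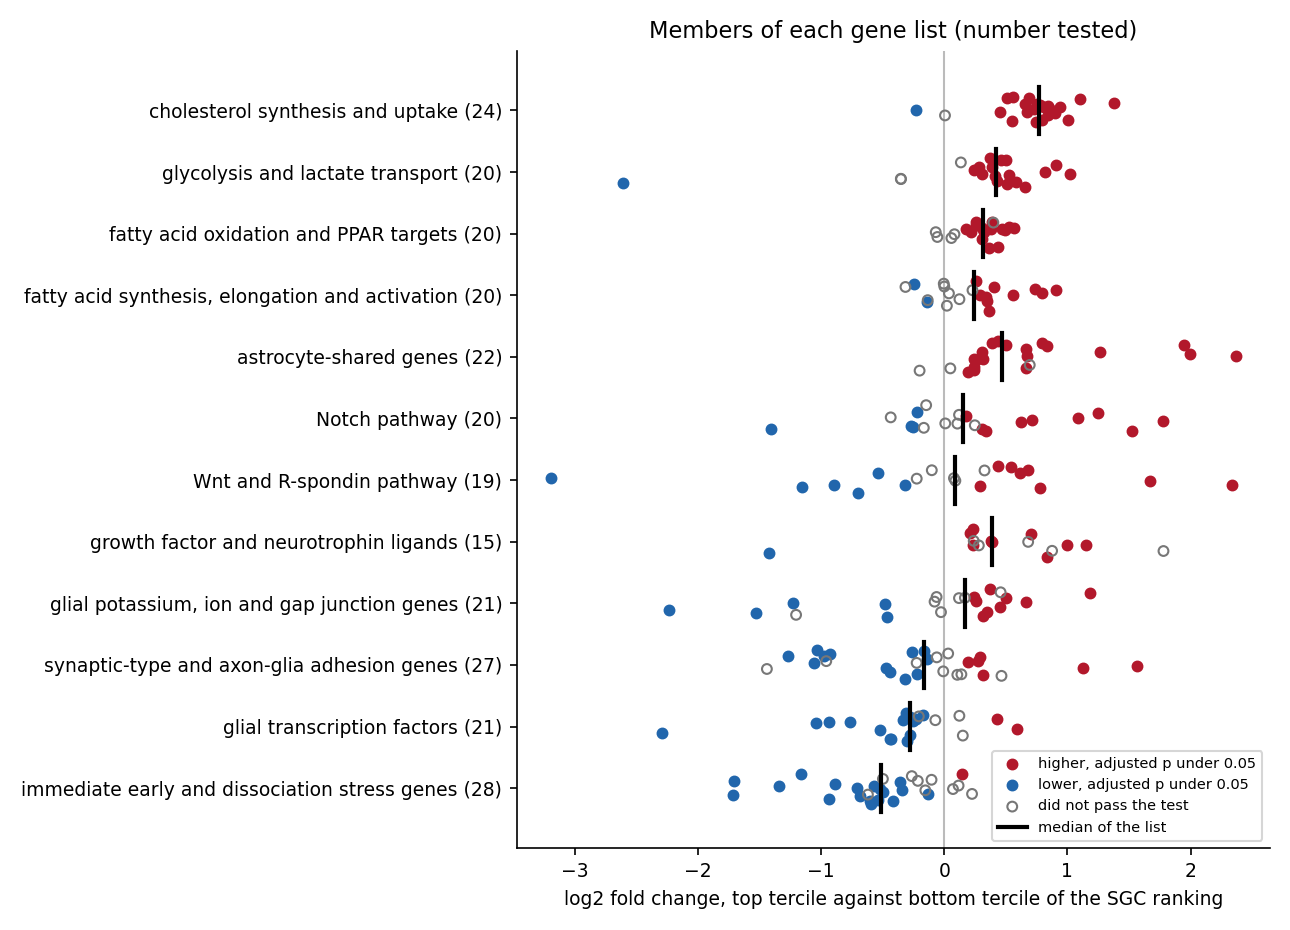
Log2 fold change of each tested member of 12 gene lists, top tercile against bottom tercile of the SGC ranking; filled points passed the test in the direction of their colour, open points did not, and black bars are list medians. Of the 24 cholesterol genes 22 sit to the right of 0 as higher, with *Srebf2* at 0.01, while most glial transcription factors and immediate early genes sit to the left.

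Of 20 genes of fatty acid oxidation and PPAR targets, 15 were higher and none lower (median 0.32), beside 16.7% and 16.2% of all genes, and 3 were higher than in the middle tercile, beside 3.78%. *Acaa2*, the thiolase of mitochondrial oxidation, had 347 and 373 CPM in the top tercile and 273 and 281 CPM in the bottom tercile (0.38 ± 0.05). *Hadha* and *Hadhb*, the subunits of the trifunctional protein, were 0.36 ± 0.04 and 0.32 ± 0.04 higher. *Fabp5*, a fatty acid binding protein, was 0.39 ± 0.05 higher. This count fell to 5 when the cells were ranked by the 5 denominator genes alone (1866 of all genes higher), where *Hadha* was at 0.13 (adjusted p = 0.0522).

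Fatty acid synthesis, elongation and activation had 10 higher and 2 lower members of 20 (median 0.24), or 50% and 10%. Of all genes 16.7% were higher and 16.2% lower, so the lower share was under that of all genes. *Acly*, which makes cytosolic acetyl-CoA from citrate, had 173 and 175 CPM in the top tercile and 100.5 and 108 CPM in the bottom tercile (0.74 ± 0.05). *Acss2*, which makes acetyl-CoA from acetate, was 0.80 ± 0.06 higher, *Acsl6*, an acyl-CoA synthetase, 0.91 ± 0.10 and *Elovl5*, an elongase, 0.56 ± 0.05. The lower members, named after their values were seen, were *Acaca*, the acetyl-CoA carboxylase (-0.14 ± 0.04), and *Srebf1*, the transcription factor of the pathway (-0.25 ± 0.05). The *Acaca* call was lost with DESeq2 (adjusted p = 0.142), and its sign turned with the numerator ranking (0.030). Against the middle tercile 1 member was higher, or 5%, near the 3.78% of all genes. With the denominator genes alone as the ranking 3 were higher than in the bottom tercile (1866 of all genes higher). *Acsl6* (0.15, adjusted p = 0.349), *Elovl5* (0.12, adjusted p = 0.123) and *Srebf1* (-0.063, adjusted p = 0.468) did not pass there. With terciles matched on UMIs *Srebf1* was at -0.058 (adjusted p = 0.507).

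Among 14 lipid carriers and efflux genes, 7 were higher and 1 lower, or 50% and 7.14% beside 16.7% and 16.2% of all genes. *Apoe*, the most abundant of them, had 78270 and 76290 CPM in the top tercile, 66020 and 65070 CPM in the middle tercile and 49170 and 48290 CPM in the bottom tercile (0.67 ± 0.02, adjusted p = 5.39e-08). It was also 39630 and 36850 CPM in droplets of 20 to 100 UMIs, which hold free RNA and no cell, so the free RNA held it as well. *Clu*, the apolipoprotein clusterin, was at a lower level and changed by more, with 18.3 and 22.8 CPM against 3.09 and 4.82 CPM (2.36 ± 0.23). *Lcat*, which esterifies cholesterol on lipoproteins, was 1.01 ± 0.10 higher. *Npc2*, the lysosomal cholesterol carrier, was 0.52 ± 0.05 higher, and *Abcg1*, a sterol exporter, 0.64 ± 0.05. *Vldlr*, a lipoprotein receptor, was the lower member (-0.17 ± 0.04), a call lost with DESeq2 (adjusted p = 0.0694) and with the numerator ranking (-0.028, adjusted p = 0.651). Under the denominator ranking 5 members were higher and 2 lower (1866 and 1816 of all genes), and *Abcg1* was at 0.14 (adjusted p = 0.0782). *Apoc1*, an apolipoprotein outside the list that was named for its size against the middle tercile, had 146 and 133 CPM in the top, 84.5 and 79.1 CPM in the middle and 51.3 and 49.9 CPM in the bottom tercile.

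Of 20 genes of glycolysis and lactate transport, 16 were higher in the top tercile and 1 lower (median 0.42), or 80% and 5% beside 16.7% and 16.2% of all genes. Against the middle tercile 10 were higher, or 50% beside 3.78% of all genes. *Slc2a1*, the glucose transporter GLUT1, had 69.5 and 67.6 CPM in the top tercile, 49.4 and 51.2 CPM in the middle tercile and 35.4 and 32.2 CPM in the bottom tercile (1.02 ± 0.06, adjusted p = 1.31e-06). *Eno1*, an enolase, was 0.91 ± 0.07 higher, with 183 and 191 CPM against 92.5 and 107 CPM. *Pgk1* and *Pkm*, the kinases that yield ATP, were 0.82 ± 0.06 and 0.66 ± 0.04 higher. *Hk2*, the inducible hexokinase, went the other way at a very low level, 0.37 and 0.41 CPM against 1.96 and 2.85 CPM (-2.61 ± 0.42, with the call lost under the denominator ranking, adjusted p = 0.0558).

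**Figure D2:**
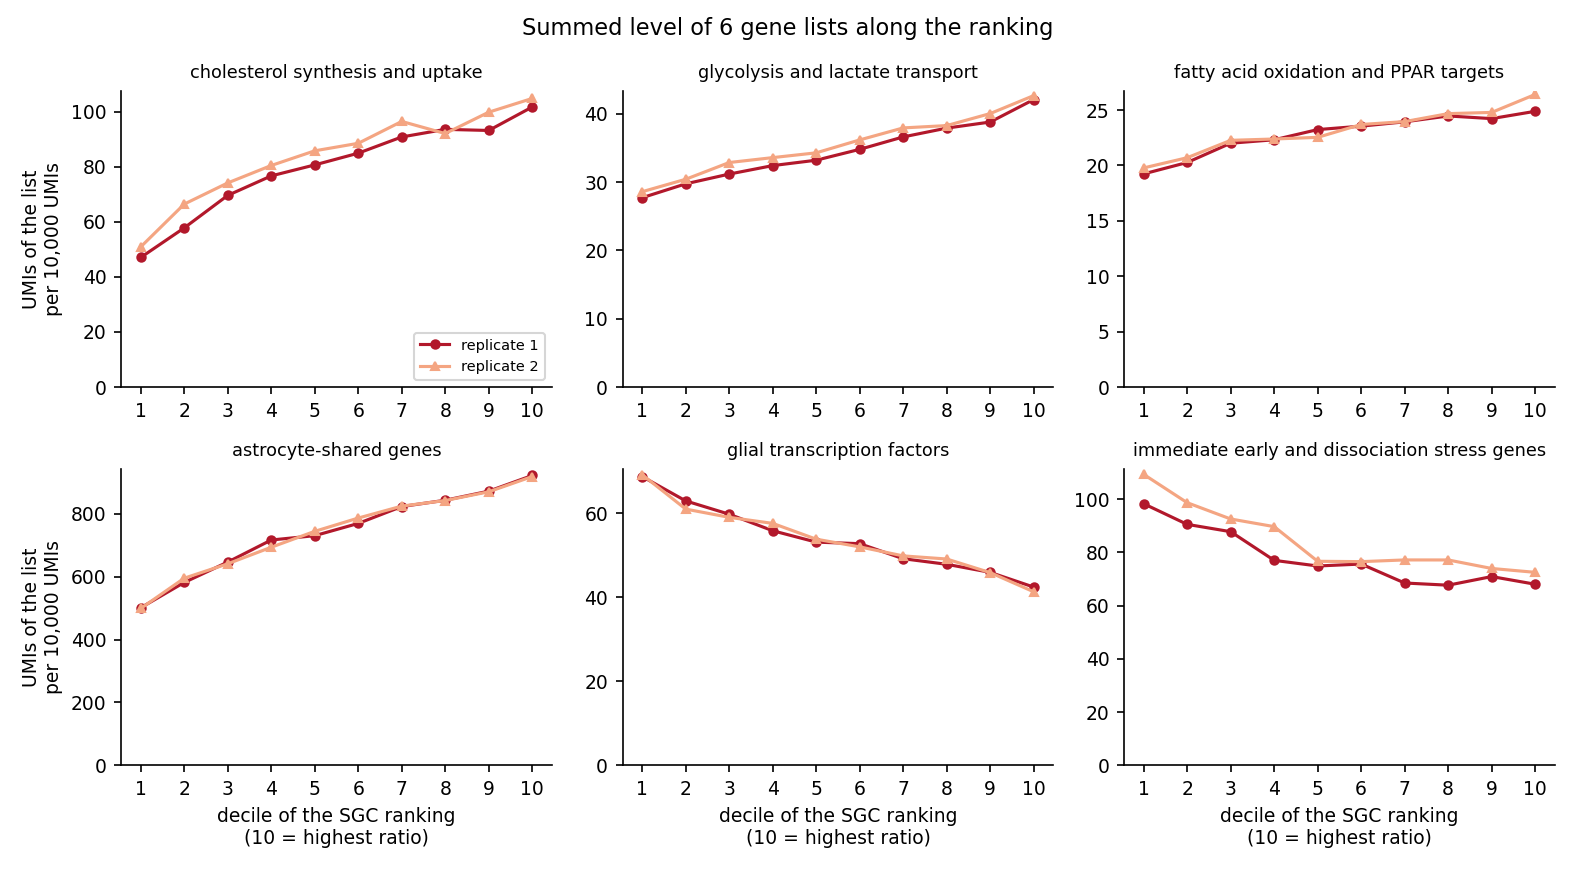
Summed level of 6 gene lists, in UMIs per 10,000 UMIs, in the 10 deciles of the SGC ranking of each sample (1 the lowest ratio, 10 the highest; circles replicate 1, triangles replicate 2). Cholesterol genes ran from 47.1 and 50.9 in the lowest decile to 101.7 and 104.8 in the highest, and glial transcription factors from 68.7 and 69.2 down to 42.4 and 41.3.

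The plot of list levels by decile of the ranking gives these lists in finer steps. Glycolysis genes summed to 27.7 and 28.6 UMIs per 10,000 in the lowest decile and to 42.1 and 42.7 in the highest. Genes shared with astrocytes rose from 502 and 499 to 923 and 919, of which *Apoe* is the larger part. Immediate early and stress genes fell from 98.3 and 109 to 68.0 and 72.5. Within the top tercile the lists still varied from cell to cell: cholesterol genes had medians of 93.4 and 97.7 per 10,000 over cells, with the 10th and 90th percentiles at 61.5 and 128.5 in replicate 1 and at 62.2 and 136.7 in replicate 2.

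Genes shared with astrocytes were higher in the top tercile for 19 of 22 members, or 86.4% beside 16.7% of all genes, and none was lower (median 0.47). Against the middle tercile 9 were higher, or 40.9% beside 3.78% of all genes. *Aqp4*, the water channel of astrocyte end feet, had 76.1 and 73.7 CPM in the top tercile, 54.1 and 47.4 CPM in the middle tercile and 17.3 and 21.4 CPM in the bottom tercile (1.95 ± 0.09, adjusted p = 3.91e-07). *Mlc1*, a membrane protein of astrocyte junctions, had 63.29 and 63.35 CPM, 36.3 and 38.9 CPM, and 15.2 and 16.4 CPM in that order (2.00 ± 0.07). *Glul*, glutamine synthetase, had 561 and 558 CPM in the top tercile and 233.3 and 232.7 CPM in the bottom tercile (1.26 ± 0.04). *Ndrg2* was 0.84 ± 0.03 higher and *Cst3*, the protease inhibitor cystatin C, 0.67 ± 0.03. *Gfap*, *Slc1a3* and *Slc7a11* did not pass the test. *Slc7a11* passed with quartiles (1.005, adjusted p = 0.0332) and with the numerator ranking (1.64, adjusted p = 0.00218). Ranked by the denominator genes alone, 11 were higher and 1 was lower (1866 and 1816 of all genes).

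Among the genes named for the size of their rise, *Sfrp5*, a secreted Wnt antagonist at chr19:42197971-42202252, had 1127 and 1105 CPM in the top tercile, 778 and 769 CPM in the middle tercile and 342 and 359.5 CPM in the bottom tercile (1.67 ± 0.04, adjusted p = 6.07e-09). Thinned to 2000 UMIs a cell, 79.3% and 80.7% of the top tercile had a UMI of *Sfrp5* (95% exact binomial intervals 76.6 to 81.9% and 78.0 to 83.1%, counting error only) and 35.7% and 40.5% of the bottom tercile. Barcodes with *Flt1*, an endothelial gene, should lack it and had 2.94% and 4.35%, at median depths of 15437.5 and 16717.5 UMIs before thinning. Unthinned shares of *Sfrp5* were 98.8% and 98.2% in the top and 75.3% and 80.6% in the bottom tercile.

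*Mt3*, the metallothionein of the nervous system, had 762.5 and 794 CPM in the top tercile, 469 and 476 CPM in the middle tercile and 192 and 212 CPM in the bottom tercile (1.94 ± 0.05). *Zfp663*, a zinc finger gene, showed the largest rise among genes of at least 20 CPM in the top tercile, with 23.3 and 28.4 CPM in the top, 11.1 and 17.6 CPM in the middle and 3.54 and 4.21 CPM in the bottom tercile (2.73 ± 0.23, adjusted p = 1.03e-05). Ranked by the denominator genes alone it was at 0.42 and did not pass (adjusted p = 0.121). *Crabp1*, which binds retinoic acid, was 1.81 ± 0.10 higher and *Dhrs3*, which reduces retinal, 2.16 ± 0.13. *Crym*, which binds thyroid hormone, was 1.91 ± 0.12 higher. *Pla2g7*, an acetylhydrolase of platelet activating factor, had 101 and 111 CPM in the top tercile and 21.7 and 27.8 CPM in the bottom tercile. *Ptgds*, a prostaglandin D synthase, was 1.85 ± 0.07 higher and *Agt*, the angiotensin precursor, 1.59 ± 0.08. *Adamts15*, a matrix protease, was 2.19 ± 0.14 higher. *Nt5dc2* (2.25), *Phlda2* (2.12), *Tagln* (2.08), *Mia* (1.93), *Arhgap28* (1.79) and *Gdpd2* (1.66) complete the named genes higher than in the bottom tercile by log2 fold change, with *Rspo1* and *Nrarp* described below. *Arhgap28* lost its call under the denominator ranking (0.16, adjusted p = 0.198).

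**Figure D3:**
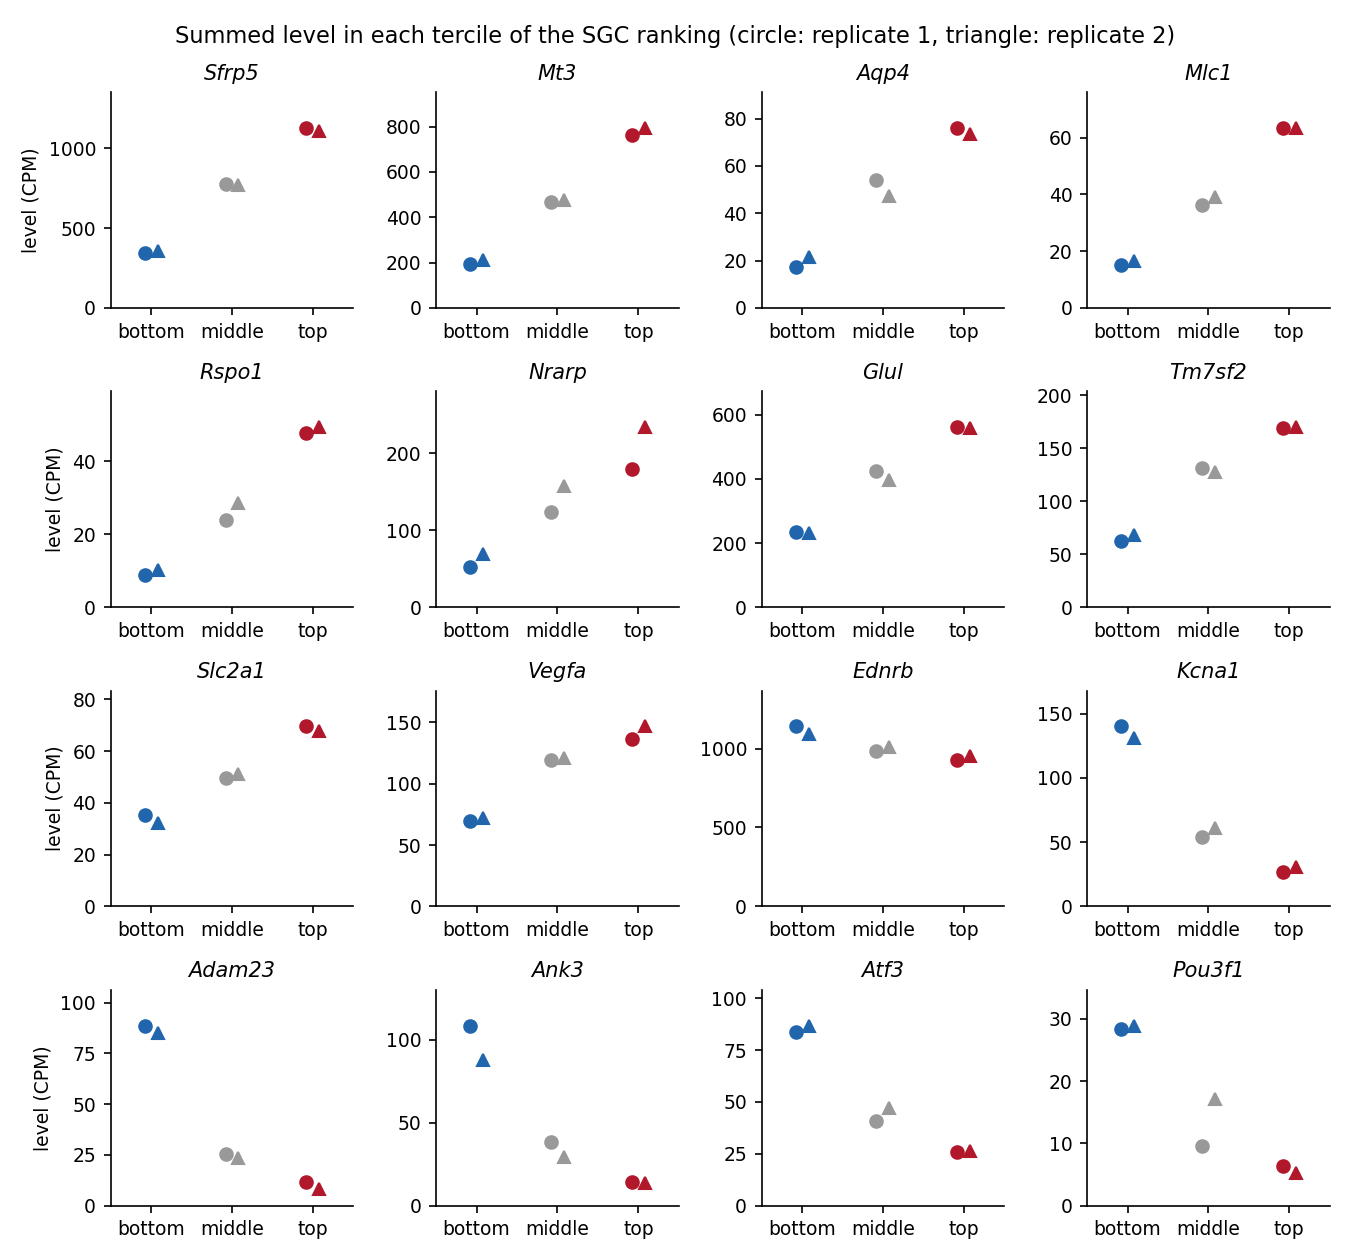
Level in CPM of 16 genes summed over the cells of the bottom, middle and top tercile of the SGC ranking (circles replicate 1, triangles replicate 2; all axes start at 0). *Sfrp5*, *Mt3*, *Aqp4* and *Mlc1* rise from tercile to tercile in both samples, *Kcna1*, *Adam23*, *Ank3* and *Atf3* fall, and *Ednrb* moves by less than the others.

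Notch pathway genes had 9 higher and 4 lower members of 20 (median 0.15), or 45.0% and 20.0%. Of all genes 16.7% were higher and 16.2% lower, so the lower share was near that of all genes. *Nrarp*, a feedback inhibitor induced by Notch, had 179.7 and 233.5 CPM in the top tercile, 124 and 157 CPM in the middle tercile and 51.9 and 68.5 CPM in the bottom tercile (1.78 ± 0.15, adjusted p = 1.36e-05). *Heyl*, a Notch effector, had 47.5 and 56.8 CPM against 23.6 and 25.5 CPM (1.09 ± 0.09), and *Hey1* and *Hey2* were 0.34 ± 0.06 and 0.31 ± 0.04 higher. *Lfng*, the fringe enzyme that modifies the receptors, was 1.25 ± 0.14 higher, with 21.9 and 27.3 CPM against 8.81 and 11.8 CPM. The ligand *Jag1* was 0.62 ± 0.05 higher. Among the receptors *Notch3* (1.52 ± 0.18), *Notch4* (0.71 ± 0.22) and *Notch2* (0.18 ± 0.06) were higher, and *Notch1* did not pass the test unless the sample was a block (0.12, adjusted p = 0.0089). The calls of *Notch2* and *Notch4* were lost with DESeq2 (adjusted p = 0.172 and 0.237). The lower members were the coactivators *Maml3* (-1.41 ± 0.09) and *Maml2* (-0.27 ± 0.05), the inhibitor *Numb* (-0.26 ± 0.04) and the target *Hes1* (-0.22 ± 0.07). The *Hes1* call was lost with DESeq2 (adjusted p = 0.122), and its sign turned with terciles matched on stress genes (0.068). Under the numerator ranking *Hey1*, *Maml2* and *Numb* lost their calls (0.14, -0.026 and -0.045). *Notch3* also stands on the list of mural markers. Ranked by the denominator genes alone, 4 Notch genes were higher and 4 lower (1866 and 1816 of all genes). There *Heyl* (0.15, adjusted p = 0.292), *Hey2* (0.036, adjusted p = 0.556) and *Notch3* (0.25, adjusted p = 0.343) did not pass.

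The letters TGGGAA, the core bound by the Notch effector RBPJ, were searched on both strands in the same promoter windows, where they read TTCCCA on the reverse strand. *Lfng* held 2 matches, shown in capitals at chr5:140607091-140607340 on the plus strand of GRCm38.p6 (RefSeq).
Lfng: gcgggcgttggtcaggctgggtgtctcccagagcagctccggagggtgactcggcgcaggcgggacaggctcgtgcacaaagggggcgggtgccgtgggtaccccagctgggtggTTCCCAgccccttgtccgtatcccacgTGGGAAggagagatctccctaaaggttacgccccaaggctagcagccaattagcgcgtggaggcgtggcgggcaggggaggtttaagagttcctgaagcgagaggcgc
They were in 5 of the 16 Notch genes with a promoter, in 25.1% of the promoters of higher genes, in 22.3% of those of lower genes and in 23.6% of all 10812, so the letters are common in windows of this length.

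Wnt and R-spondin genes had 8 higher and 6 lower members of 19, or 42.1% and 31.6%, beside 16.7% and 16.2% of all genes. *Rspo1*, the R-spondin that amplifies Wnt signals through LGR receptors, had 47.8 and 49.4 CPM in the top tercile, 24.0 and 28.7 CPM in the middle tercile and 8.96 and 10.2 CPM in the bottom tercile (2.34 ± 0.10, adjusted p = 2.39e-07). *Lgr5*, one of the receptors of R-spondins, was a denominator gene of the ranking and is not reported. *Lgr4*, another, had 593 and 581.5 CPM against 732 and 733 CPM (-0.32 ± 0.03). *Sfrp1*, an antagonist related to *Sfrp5*, was 0.77 ± 0.07 higher. Of the receptors, *Fzd6*, *Fzd8* and *Fzd3* were 0.68 ± 0.18, 0.61 ± 0.06 and 0.43 ± 0.05 higher and *Fzd1* was lower (-0.54 ± 0.11). The transcription factor *Tcf7l1* was 0.54 ± 0.06 and *Ctnnb1* 0.29 ± 0.04 higher. Among the lower members, picked after their values were seen, were *Axin2*, a Wnt target and inhibitor, with 7.88 and 8.05 CPM against 13.3 and 12.6 CPM (-0.70 ± 0.13), *Nkd1* at 0.61 and 0.53 CPM against 5.95 and 4.61 CPM (-3.19 ± 0.33) and *Notum* at 1.22 and 1.00 CPM against 3.01 and 1.97 CPM. *Dkk3* was lower as well (-0.90 ± 0.11). Ranked by the denominator genes alone, 2 members were higher and 6 lower (1866 and 1816 of all genes). *Sfrp1*, *Fzd3*, *Fzd6*, *Fzd8*, *Ctnnb1*, *Nkd1* and *Notum* lost their calls there (adjusted p = 0.155 to 0.906), and *Tcf7l1* was at -0.11 (adjusted p = 0.204). The calls of *Fzd1* and *Fzd6* were lost with DESeq2 as well (adjusted p = 0.0524 and 0.147), as was that of *Notum* (adjusted p = 0.115).

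BMP and TGF-beta genes had 9 higher and 3 lower members of 23 (median 0.10), or 39.1% and 13.0%. Of all genes 16.7% were higher and 16.2% lower, so the lower share was under that of all genes. The ligand *Bmp2* was rare, with 2.02 and 2.35 CPM in the top tercile and 0.38 and 0.34 CPM in the bottom tercile (2.59 ± 0.40). *Id4* and *Id3*, targets of BMP signalling, were 0.68 ± 0.07 and 0.31 ± 0.04 higher. *Sostdc1*, a secreted BMP antagonist found in SGCs, had 661 and 710.5 CPM against 554 and 587.5 CPM (0.26 ± 0.05). The lower members, named after their values were seen, were the transducer *Smad1* (-0.50 ± 0.13) and the receptors *Tgfbr1* (-0.41 ± 0.10) and *Acvr1* (-0.40 ± 0.08). Against the middle tercile 2 members were higher and none lower, or 8.70% higher beside 3.78% of all genes. When the denominator genes alone ranked the cells, 4 were higher and 7 lower than in the bottom tercile (1866 and 1816 of all genes). *Bmp2* was at 0.89 (adjusted p = 0.119) and *Acvr1* at -0.22 (adjusted p = 0.103) there. The *Smad1* call was lost under the numerator ranking (adjusted p = 0.0502).

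Growth factor and neurotrophin ligands were higher for 9 of 15 members and lower for 1, or 60% and 6.67%. Of all genes 16.7% were higher and 16.2% lower, so the lower share was under that of all genes. *Vegfa*, the vascular growth factor, had 136 and 147 CPM in the top tercile, 119 and 121 CPM in the middle tercile and 69.6 and 72.2 CPM in the bottom tercile (1.00 ± 0.05, adjusted p = 6.43e-07). *Vegfb* was 0.83 ± 0.06 higher. *Il34* and *Csf1*, the ligands of the macrophage receptor CSF1R, were 1.15 ± 0.09 and 0.71 ± 0.08 higher, *Il34* with 38.5 and 41.6 CPM against 18.8 and 17.2 CPM. *Cntf*, a cytokine of Schwann cells, was the lower member, with 2.69 and 2.70 CPM against 6.93 and 7.53 CPM (-1.42 ± 0.18). *Gdnf* did not pass the filter on low counts. The higher count was 3 with the denominator genes alone (1866 of all genes higher). There *Vegfa* (0.12, adjusted p = 0.12), *Csf1* (0.057, adjusted p = 0.665) and *Cntf* (-0.53, adjusted p = 0.0626) did not pass.

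Growth factor receptors had 6 higher and 6 lower members of 16, or 37.5% in each direction, beside 16.7% and 16.2% of all genes. Their median span was 85.8 kb, and genes of 30 to 100 kb were higher for 12.2% and lower for 21.3%. *Lifr*, the receptor of leukaemia inhibitory factor, had 268.5 and 309 CPM in the top tercile and 154 and 166.5 CPM in the bottom tercile (0.85 ± 0.08). *Ntrk2*, the neurotrophin receptor TrkB, was 0.72 ± 0.04 higher and *Fgfr1* 0.63 ± 0.04. *Gfra1*, the GDNF coreceptor, had 14.0 and 12.2 CPM against 40.4 and 33.9 CPM (adjusted p = 3.59e-06). *Erbb3*, the neuregulin receptor that glia of the neural crest share, was lower with 149 and 145.5 CPM against 208 and 209.5 CPM (-0.50 ± 0.05). With the denominator genes alone, 2 receptors were higher and 7 lower (1866 and 1816 of all genes), and *Lifr* was at 0.076 (adjusted p = 0.545).

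*Ednrb*, the endothelin B receptor, was abundant in all 3 terciles. It had 930.1 and 952 CPM in the top tercile, 984 and 1009 CPM in the middle tercile and 1140 and 1094 CPM in the bottom tercile (-0.25 ± 0.04, adjusted p = 0.000475). The top tercile was lower than the bottom tercile in both samples, and the middle tercile lay between them. Thinned to 2000 UMIs, 78.5% and 81.1% of the top tercile had a UMI of *Ednrb* and 84.9% and 85.1% of the bottom tercile, against 8.24% and 7.61% of *Flt1* barcodes. The unthinned shares were 99.7% and 99.4% in the top tercile. The call was lost when the cells were ranked by the denominator genes alone (-0.09, adjusted p = 0.055). *Mme*, neprilysin, which degrades endothelins among other peptides, had 9.96 and 10.8 CPM against 3.09 and 3.12 CPM (1.74 ± 0.16), and *Ece1*, which cleaves the precursor, was 0.18 ± 0.05 higher. The *Ece1* call was lost with DESeq2 (adjusted p = 0.0715), without TMM scaling (edgeR, adjusted p = 0.156), with terciles matched on UMIs (adjusted p = 0.0725) or on stress genes (adjusted p = 0.0526), and with the denominator ranking, where it was at -0.066 (adjusted p = 0.358). *Ednra*, the A receptor, was at 0.28 and did not pass the test (adjusted p = 0.10). The ligands *Edn1* and *Edn3* did not pass the filter on low counts and were not tested.

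Potassium, ion and gap junction genes had 9 higher and 5 lower members of 21, or 42.9% and 23.8%. Of all genes 16.7% were higher and 16.2% lower. *Gja1*, connexin 43, had 206 and 190.3 CPM in the top tercile, 177 and 182 CPM in the middle tercile and 145 and 135 CPM in the bottom tercile (0.50 ± 0.05, adjusted p = 6.49e-05). *Gjc3*, a connexin of myelinating glia, went down, with 89.6 and 75.6 CPM against 213 and 174 CPM (-1.23 ± 0.10). *Kcnj10*, the inward rectifier Kir4.1, had 254 and 248 CPM, 240 and 232 CPM, and 208 and 197 CPM from top to bottom (0.31 ± 0.04). *Atp1b2*, a subunit of the sodium pump, was 0.66 ± 0.04 higher, *Slc12a2*, the NKCC1 cotransporter, 0.45 ± 0.04, and *Kcnma1*, the BK channel, 1.18 ± 0.30. *Kcna1*, a voltage-gated channel of axons and Schwann cells, fell the most within the list, with 26.7 and 31.0 CPM in the top tercile, 54.1 and 60.8 CPM in the middle tercile and 140 and 131 CPM in the bottom tercile (-2.23 ± 0.08, adjusted p = 1.05e-07). *Kcna2* was lower as well (-0.48 ± 0.07). With the denominator genes alone, 3 members were higher and 5 lower (1866 and 1816 of all genes). None of *Gja1* (0.11), *Kcnj10* (0.08), *Slc12a2* (-0.086, adjusted p = 0.131) and *Kcnma1* (0.15, adjusted p = 0.78) passed there. The *Kcnma1* call was also lost with DESeq2 (adjusted p = 0.0891).

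Glutamate and GABA handling had 4 higher and 4 lower members of 16, or 25% in each direction beside 16.7% and 16.2% of all genes. The list had a median span of 113 kb, and genes of 100 to 300 kb were higher for 9.67% and lower for 42.2%. The higher ones were *Glul*, given above, the transporters *Slc1a2* (0.79 ± 0.11) and *Slc6a11* (0.69 ± 0.09), and the aminotransferase *Got1* (0.80 ± 0.07). The lower ones included receptor subunits. *Grik2* had 541 and 584 CPM in the top tercile and 1280 and 1364 CPM in the bottom tercile (-1.23 ± 0.05), *Gria4* was at -0.58 ± 0.05 and *Gria2* at -2.49 ± 0.47 from a very low level. With the denominator genes alone, 2 members were higher and 6 lower (1866 and 1816 of all genes). There *Slc1a2* (-0.18, adjusted p = 0.231), *Slc6a11* (0.20, adjusted p = 0.11) and *Gria2* (0.40, adjusted p = 0.591) did not pass.

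Matrix genes had 11 higher and 6 lower members of 22, or 50% and 27.3%, beside 16.7% and 16.2% of all genes. Their median span was 68.1 kb, and genes of 30 to 100 kb were higher for 12.2% and lower for 21.3%. Among proteoglycans and their linkers, *Bcan* had 639 and 659.5 CPM in the top tercile and 383 and 421 CPM in the bottom tercile (0.69 ± 0.05), and *Cspg5*, *Ncan* and *Hapln1* were 0.86 ± 0.07, 1.12 ± 0.14 and 1.23 ± 0.17 higher. *Cspg4* was lower (-0.95 ± 0.10). The elastic fibre gene *Fbln5* had 1018 and 997.5 CPM against 512 and 545 CPM (0.93 ± 0.04), and *Fbln2* was 0.63 ± 0.04 higher. Of the laminins, *Lama2* was lower (-0.76 ± 0.04), with 418 and 409 CPM against 706.5 and 697 CPM, as were *Lama4* and *Lamb1*. *Col3a1*, a fibrillar collagen, had 20.0 and 22.9 CPM in the top tercile, 39.8 and 41.9 CPM in the middle tercile and 88.4 and 77.8 CPM in the bottom tercile (-1.95 ± 0.08). When the cells were ranked by the denominator genes alone, 4 members were higher and 5 lower (1866 and 1816 of all genes). There *Cspg5* (0.14), *Ncan* (0.050), *Hapln1* (0.16) and *Cspg4* (-0.12) lost their calls.

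Adhesion genes of synaptic or axon-glia type had 12 lower and 6 higher members of 27 (median -0.16), beside 16.2% and 16.7% of all genes. Their median span on the genome was 273 kb, and genes of 100 to 300 kb were lower for 42.2% and higher for 9.67%, so the share of lower members, 44.4%, was near that of genes of such length. *Cdh19*, a cadherin of Schwann cell precursors and SGCs, had 520.2 and 435 CPM in the top tercile, 758 and 642 CPM in the middle tercile and 1212 and 1088 CPM in the bottom tercile (-1.27 ± 0.09). *Cdh10* was lower (-1.03 ± 0.07), *Lrrtm4* was at -1.06 ± 0.17 and *Pcdh9* at -0.32 ± 0.04. *Nrxn2*, a neurexin, was 1.57 ± 0.14 higher and *Nrcam*, an adhesion molecule of nodes, 0.29 ± 0.08. With the denominator genes alone no member was higher and 14 of 28 were lower (1866 and 1816 of all genes). There *Nrxn2* was at 0.22 (adjusted p = 0.258) and *Nrcam* at -0.12 (adjusted p = 0.288). The *Nrcam* call was also lost without TMM scaling (0.21, adjusted p = 0.0831), with terciles matched on UMIs (0.16, adjusted p = 0.26) or stress genes (adjusted p = 0.0612) and without *Pou3f1* cells (adjusted p = 0.0592). With the numerator genes alone 8 were higher and 7 lower (2285 and 2103 of all genes), and *Pcdh9* was at -0.10 (adjusted p = 0.0809).

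Among the genes named for the largest falls, *Adam23*, a non-catalytic ADAM protein of axons and synapses, had 11.7 and 8.05 CPM in the top tercile, 25.3 and 23.3 CPM in the middle tercile and 88.6 and 84.8 CPM in the bottom tercile (-3.14 ± 0.11, adjusted p = 1.08e-07). *Ank3*, ankyrin G, had 14.5 and 13.6 CPM, 38.6 and 29.2 CPM, and 109 and 88.2 CPM in that order (-2.80 ± 0.14). *Kif26b*, a kinesin, had 1.96 and 2.35 CPM in the top tercile and 24.6 and 21.9 CPM in the bottom tercile (-3.43 ± 0.15). The potassium channel *Kcnk13* was at -2.33 ± 0.10 and the kainate receptor subunit *Grik1* at -2.88 ± 0.24. *Grik1* depended on the sample, with -3.7 and -2.21. *Lgals3*, a galectin, was at -1.88 ± 0.11, *Fgf13* at -1.85 ± 0.09, *Ppp2r2b* at -1.85 ± 0.11 and *Tmem117* at -1.82 ± 0.09. Against the middle tercile, *Slc24a2* (-0.85) and *Maml3* (-0.76) were named besides genes already given.

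Glial transcription factors were lower for 15 of 21 members and higher for 2 (median -0.28), or 71.4% and 9.52%. Of all genes 16.2% were lower and 16.7% higher. The median span of the list was 58.4 kb, and genes of 30 to 100 kb were lower for 21.3%. Against the middle tercile 11 members were lower, beside 3.6% of all genes. *Zeb2*, which is needed for Schwann cell differentiation, had 548 and 503 CPM in the top tercile, 697 and 666.5 CPM in the middle tercile and 1032 and 978 CPM in the bottom tercile (-0.94 ± 0.05, adjusted p = 5.77e-07). *Pou3f1* had 6.41 and 5.29 CPM, 9.61 and 17.2 CPM, and 28.5 and 28.9 CPM in that order (-2.29 ± 0.22), and replicate 2 of the middle tercile was higher than replicate 1. *Egr2*, the myelination factor, had 5.74 and 6.82 CPM against 13.5 and 12.4 CPM (-1.04 ± 0.13). *Sox5*, *Sox6* and *Sox10* were at -0.52 ± 0.05, -0.43 ± 0.04 and -0.30 ± 0.06. The higher members, named after their values were seen, were *Etv4* (0.59 ± 0.07) and *Etv5* (0.43 ± 0.06), known targets of FGF signalling. The *Etv5* call was lost with terciles matched on UMIs (0.23, adjusted p = 0.0545), and the *Egr2* call with terciles matched on stress genes (-0.41, adjusted p = 0.0712). Ranked by the denominator genes alone, 9 members were lower (1816 of all genes lower). There *Pou3f1* (0.32, adjusted p = 0.21), *Egr2* (-0.41, adjusted p = 0.0551) and *Sox10* (-0.063, adjusted p = 0.481) did not pass the test.

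Immediate early and stress genes, which rise when tissue is digested, were lower for 18 of 28 members and higher for 1 (median -0.51). These were 64.3% and 3.57%, beside 16.2% and 16.7% of all genes. Against the middle tercile 5 members were lower, beside 3.6% of all genes. With the sample as a block 23 were lower and 4 higher (3082 and 3048 of all genes). *Atf3*, a stress-induced transcription factor, had 25.8 and 26.4 CPM in the top tercile, 40.9 and 47.3 CPM in the middle tercile and 83.5 and 86.7 CPM in the bottom tercile (-1.71 ± 0.07, adjusted p = 2.2e-07). *Btg2* was at -1.34 ± 0.07, *Klf4* at -1.71 ± 0.14 and *Egr3* at -0.93 ± 0.06. *Fos* had 782 and 870.5 CPM in the top tercile and 1174 and 1341 CPM in the bottom tercile (-0.61 ± 0.07). *Hspa8*, a constitutive chaperone, was the higher member (0.15 ± 0.04), a call lost without TMM scaling (adjusted p = 0.168). With the terciles matched on the level of this list, 6 members were lower and 5 higher, as the matching itself removes the difference, while the cholesterol list had 22 higher members and the astrocyte list 19.

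The named genes were also measured in the other barcodes of the ganglion (CPM before TMM scaling). The counts that follow were not made over all genes. They describe the named genes and do not tell whether other genes of SGCs would differ from them. Of the 20 genes named for the largest rises, 17 had less RNA in barcodes with *Ncmap* than in any tercile in both samples, with *Dhrs3*, *Tagln* and *Mt3* as exceptions. The same held for 13 of them in *Scn7a* barcodes, 12 in *Col1a1*, 13 in *Rgs5*, 17 in *C1qa* and 16 in *Flt1* barcodes. *Aqp4* was at 1.36 and 1.92 CPM in *Ncmap* barcodes and at 73.3 and 72.2 CPM in the top tercile. *Mt3* was at 1195 and 1204 CPM in *Ncmap* barcodes, above the 734 and 778 CPM of the top tercile. Of the 15 named for the largest falls, 7 were above every tercile in *Ncmap* barcodes and 13 in barcodes with *Scn7a*, a gene of non-myelinating Schwann cells whose barcodes here also carried RNA of neurons, while 3 were so in *Col1a1*, 4 in *Rgs5*, 3 in *C1qa* and 2 in *Flt1* barcodes. *Kcna1* was at 1314 and 1387 CPM in *Ncmap* barcodes and *Pou3f1* at 695 and 791 CPM. *Ank3* was at 716 and 701 CPM in *Ncmap* barcodes and at 1259 and 1435 CPM in *Scn7a* barcodes. In droplets without a cell *Kcna1* was at 164 and 240 CPM and *Sfrp5* at 455 and 299 CPM, so the free RNA held genes of both ends. Its part in the differences was not tested.

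**Figure D4:**
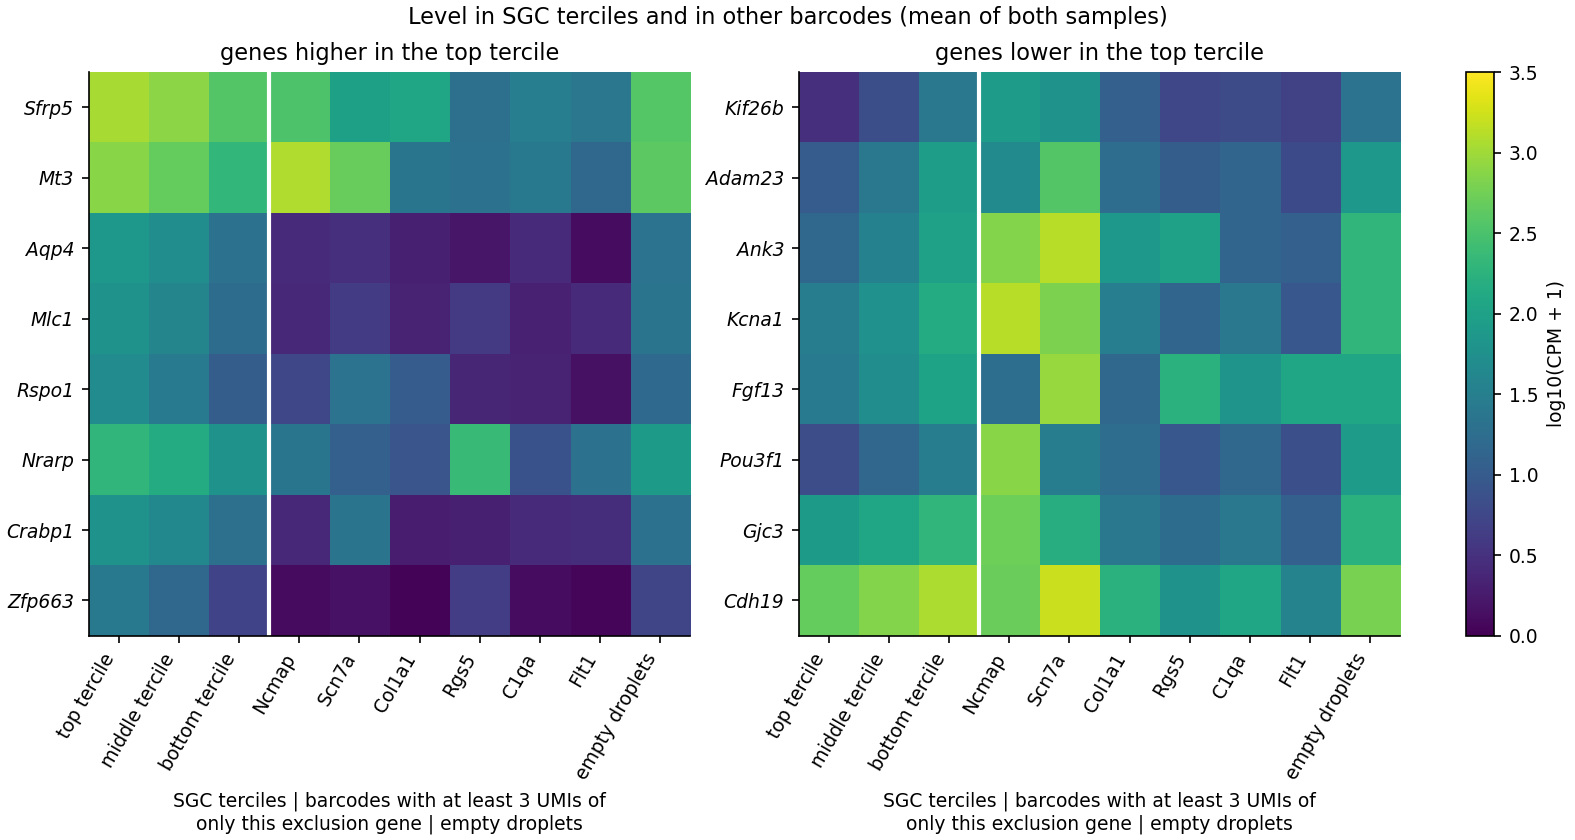
Level, as log10(CPM + 1) and the mean of both samples, of 8 genes higher (left) and 8 lower (right) in the top tercile, in the terciles of the SGC ranking, in barcodes with at least 3 UMIs of only the named exclusion gene, and in empty droplets of 20 to 100 UMIs. *Aqp4* and *Mlc1* are lower in all 6 other kinds of barcode than in SGCs or empty droplets, while *Kcna1* and *Pou3f1* are brightest in *Ncmap* barcodes.

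Markers of other cell types were low in the top tercile beside those of SGCs and moved in different ways. Their sums are in CPM before TMM scaling. Their counts of calls stand beside 16.7% higher and 16.2% lower of all genes. In droplets without a cell neuronal markers summed to 2013 and 1281 CPM and those of myelinating Schwann cells to 6029 and 6285 CPM, above every tercile. The other lists were above every tercile there as well, except non-myelinating Schwann cells at 496 and 514 CPM. The 8 markers of myelinating Schwann cells summed to 1234 and 1349 CPM in the top tercile and to 1467 and 1426 CPM in the bottom tercile. Of these 3 were higher and 3 lower, or 4 and none with the denominator ranking (1866 and 1816 of all genes). The 6 of non-myelinating Schwann cells summed to 408 and 377 CPM against 792 and 718 CPM, mostly *Chl1*, and 4 of 5 tested, with a median span of 231 kb, were lower. Genes of 100 to 300 kb were lower for 42.2%. Neuronal markers summed to 99.3 and 135.5 CPM against 78.6 and 115.9 CPM, led by *Uchl1* in the top tercile, and of 10 tested *Nefl* and *Nefm* were higher, or 5 with the sample as a block and none with terciles matched on UMIs. With the cells that carried neuronal RNA removed, *Nefl* was at 0.12 (adjusted p = 0.82) and *Nefm* at 0.52 (adjusted p = 0.22), while 2360 genes were higher and 2361 lower in the top tercile. Mural markers summed to 43.4 and 52.6 CPM against 21.8 and 24.4 CPM, mostly *Pdgfrb*, which with *Notch3* was higher, while *Acta2* and *Myh11* did not pass the test. Fibroblast markers summed to 223 and 251 CPM against 308 and 317 CPM, mostly *Col1a2*, with *Lum* higher and *Col3a1* lower, or 1 higher and 3 lower with the block. Endothelial markers stood at 6.47 and 9.45 CPM and macrophage markers at 11.7 and 18.9 CPM in the top tercile, led by *Cldn5* and *Cd74*, and no tested marker of either passed, while with the sample as a block 1 of 5 endothelial markers, *Cldn5*, was higher (0.78, adjusted p = 0.0221) and no macrophage marker passed. With the exception of *Kcnj8*, at 0 in the top and bottom terciles of replicate 2, and *Pdgfra*, at 0 in the bottom tercile of replicate 2, no marker was at 0. Removing the cells with a *Pou3f1* UMI left 2158 higher and 2034 lower genes. The part of RNA from other cell types in the remaining differences was not tested.

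Interferon response genes had 5 higher and 1 lower member of 21, or 23.8% higher beside 16.7% of all genes. Their median span was 8.36 kb, and genes under 10 kb were higher for 22.5%, near the share of the list. With the sample as a block 8 members were higher and 4 lower. *Ifitm3*, a membrane protein that restricts viruses, had 595 and 620 CPM against 346 and 381 CPM (0.74 ± 0.07), and *Isg15* was 0.54 ± 0.13 higher. *Ifit2* was the lower one (-0.33 ± 0.11), a call lost with DESeq2 (adjusted p = 0.291) and under either ranking alone. Myelin genes had 2 higher and 3 lower members of 10, or 20% and 30%, beside 16.7% and 16.2% of all genes. The higher share was thus near that of all genes. Under the denominator ranking 3 were higher and none lower (1866 and 1816 of all genes). Under the numerator ranking 1 was higher and 5 were lower (2285 and 2103 of all genes). *Cnp* was at -0.61 ± 0.04 (-0.034 and adjusted p = 0.588 with the denominator ranking) and *Prx*, periaxin, at -0.54 ± 0.13, while *Mbp* was 0.22 ± 0.05 and *Pmp22* 0.13 ± 0.04 higher. The *Prx* call was lost with DESeq2 (adjusted p = 0.0889) and with terciles matched on UMIs (adjusted p = 0.122) or *Malat1* (adjusted p = 0.359), and under the denominator ranking *Prx* was at 0.099. Without TMM scaling neither *Mbp* (adjusted p = 0.0728) nor *Pmp22* (adjusted p = 0.396) passed, and *Pmp22* was at -0.015 under the numerator ranking. Cell cycle genes had 3 higher members of 16, or 18.8%, near the 16.7% of all genes. These were *Ccnd1*, a cyclin of G1 (0.64 ± 0.05), *Pcna* (0.21 ± 0.06) and the rare *Ccnb1* (1.7 and 2.2 CPM), while *Mki67* and *Top2a* did not pass. The *Pcna* call was lost with DESeq2 (adjusted p = 0.165), and the *Ccnb1* call with terciles matched on UMIs (adjusted p = 0.0646) or stress genes (1.17, adjusted p = 0.307) and without *Pou3f1* cells (1.32, adjusted p = 0.178). The direction depended on the ranking. With the denominator genes alone 11 of 17 were higher and none lower (1866 and 1816 of all genes). With the numerator genes alone 1 was higher and 8 were lower (2285 and 2103 of all genes). *Mki67* was at 4.75 and -3.41 in that order. With the sample as a block 8 of 16 were higher and 1 lower.

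Gene length and nuclear RNA moved with the ranking. Genes spanning under 10 kb on the genome were higher in the top tercile for 22.5% and lower for 6.60% of 3802 tested, while genes over 300 kb were higher for 9.96% and lower for 51.1% of 472. The ranking itself was built on genes of unequal span: the denominator genes span 137.5 to 1313 kb and the numerator genes 1.45 to 57.0 kb. Ranked by the 5 numerator genes alone, genes over 300 kb were higher for 16.7% and lower for 38.5%. *Malat1*, an RNA kept in the nucleus, had 41210 and 39680 CPM in the top tercile, 48160 and 45430 CPM in the middle tercile and 55110 and 50750 CPM in the bottom tercile (-0.39 ± 0.04, adjusted p = 3.95e-05). *Neat1* and *Kcnq1ot1*, also nuclear, were at -0.42 ± 0.08 and -0.62 ± 0.06. Of 7 tested members of the nuclear list 5 were lower, or 71.4% beside 16.2% of all genes. *Meg3*, another of them, depended on the sample, with 41.9 and 86.9 CPM in the bottom tercile. With the terciles matched on *Malat1*, 1408 genes were higher and 1297 lower. Genes over 300 kb were then lower for 41.4%, genes of 100 to 300 kb for 24.7% and genes of 30 to 100 kb for 9.9%. Without the matching these shares were 51.1%, 42.2% and 21.3%. Genes under 10 kb were lower for 6.01% with it and 6.60% without. The part of nuclear RNA in the falls of long genes was not tested beyond this matching.

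**Figure D5:**
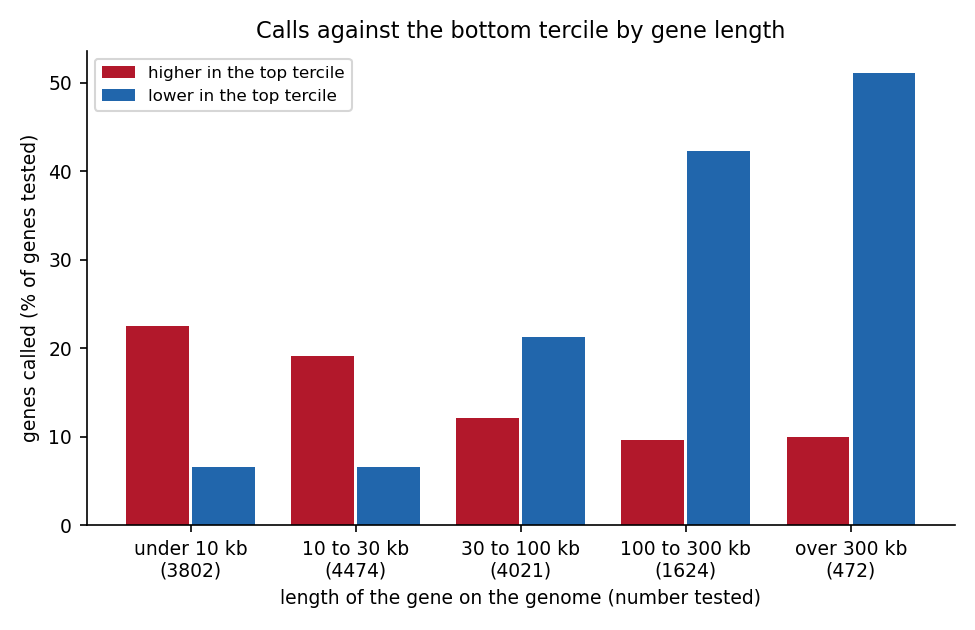
Share of tested genes called higher (red) or lower (blue) in the top tercile than in the bottom tercile, by the length of the gene on the genome, with the number tested in parentheses. The share lower rises from 6.60% under 10 kb to 51.1% over 300 kb.

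Among genes under 30 kb, where 20.65% of 8276 were higher and 6.62% lower, the same lists moved the same way. Of 21 short cholesterol genes 20 were higher, of 15 short astrocyte-shared genes 14 were higher, and of 14 short glycolysis genes 12 were higher. Of 10 short transcription factors 6 were lower, and of 26 short immediate early and stress genes 16 were lower.

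Variation between cells of the top tercile was measured as the variance over the mean, a quantity that grows with the level of a gene. At 2000 UMIs a cell the variance over the mean was 1.05 in both samples for the median of 1473 genes, where 1 is the value of counting alone. It was 21.2 and 18.2 for *Gm42418*, a locus that overlaps ribosomal RNA, 3.97 and 3.87 for *AY036118*, another such locus, 9.73 and 10.4 for *Malat1*, 6.42 and 6.91 for *Apoe* and 3.68 and 3.67 for *Cst3*. *Fos* reached 3.63 and 3.35, *Jun* 3.03 and 2.78, and *Hspa1a* 2.29 and 2.59. *Ccn1*, a matricellular gene induced by stretch and serum, reached 2.69 and 2.95, and *Dbi*, the acyl-CoA binding protein, 3.07 and 3.57.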

How the data were processed

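The authors aligned the reads with Cell Ranger 7.1.0 to mm10 and deposited unfiltered tables of UMI counts per gene and droplet, whole numbers with no normalization; whether intronic reads were counted is not given in the sources used here. Among 78 identifiers that share a symbol with another, the one with the most UMIs kept the symbol and none were summed. SGCs were chosen and ranked as described above in each of the 2 samples, and the members and gene lists were chosen with earlier results of these data known. No doublet caller was run: the 6 exclusion genes and an upper cutoff (median plus 5 MAD, an alternative) served in its place.

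UMIs were summed per sample and tercile into 6 profiles. A gene was kept when 2 or more profiles held 10 or more of its UMIs, and was tested with edgeR 4.0.16 (R 4.3.3; TMM, quasi-likelihood F test, no block), and the 17 genes used to choose cells were left out. SE is the absolute log2 fold change over the root of F. Named genes were those with the largest changes among called genes that had at least 20 CPM in the higher tercile and the same sign in both samples: 20 higher and 15 lower against the bottom tercile, and 8 in each direction against the middle tercile, without mitochondrial, ribosomal and unnamed genes. From each of 31 lists the up to 4 called members with the smallest p were added, with *Ednrb*, *Ednra*, *Edn1*, *Edn3*, *Gja1*, *Kcnj10* and the genes that varied most among the cells. Other list members in the text were picked after their values were seen. Shares of cells were taken after thinning each cell to 2000 UMIs. The terciles of 1 sample share a dissociation and library, and their deviations from the group means correlated at 0.423 to 0.429 over 6492 genes, so the fit with the sample as a block was run as well. Gene spans came from GENCODE M21 (32235 of 32285 identifiers matched) and promoters from RefSeq. The other alternatives were DESeq2 1.42.0, library size alone, no filter, matching on UMIs, quartiles, ranking by either gene set, a minimum of 5000 UMIs, removal of cells with neuronal RNA and, added after the data were seen, matching on *Malat1* or on stress genes and removal of cells with *Pou3f1*. Some named genes and list members are not reported here.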

Additional observations from a re-analysis of the deposited data

How the results depend on the processing

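Over 14398 genes, 2402 were higher and 2331 lower in the top tercile than in the bottom tercile. DESeq2 gave 1586 and 1371, and matching on *Malat1* gave 1408 and 1297. Against the middle tercile, where 544 were higher and 518 lower, DESeq2 gave 290 and 269, library size alone 357 and 809, no filter on low counts 883 and 824, the replicate block 1339 and 1297, matching on UMIs 327 and 339, matching on *Malat1* 192 and 156 and ranking by the 5 denominator genes alone 62 and 127. Ranking by the 5 numerator genes alone gave 317 lower. The causes were not tested, except that a block uses the pairing of terciles within a sample and that DESeq2 and matching use another estimate of spread or fewer cells. Against the bottom tercile the block gave 3048 higher and 3082 lower. Of the 2402 higher genes 1879 were called higher with the numerator ranking and 1310 with the denominator ranking.

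Of 202 genes named and tested, 180 were called, and 15 of these changed sign under a setting. With the numerator ranking *Cadm2* was at 0.16 (adjusted p = 0.0544), *Ccnb1* at -1.87 (adjusted p = 0.0572), *Acaca* at 0.030 and *Pmp22* at -0.015. With the denominator ranking *Ece1* was at -0.066, *Gm42418* at -0.049, *Gria2* at 0.40, *Nrcam* at -0.12, *Pou3f1* at 0.32, *Prx* at 0.099, *Slc12a2* at -0.086, *Slc1a2* at -0.18 and *Tcf7l1* at -0.11. Matched on *Malat1*, *Malat1* itself was at 0.066 and *Pmp22* at -0.00063, and matched on stress genes *Hes1* was at 0.068. A further 46 lost their call with the denominator ranking, the setting that moved most. Besides those that changed sign in the same setting, 17 lost their call with matching on UMIs: *Cadm2*, *Ccnb1*, *Cntf*, *Ece1*, *Etv5*, *Fzd6*, *Hes1*, *Ifit2*, *Kcnma1*, *Nefl*, *Nefm*, *Notch2*, *Notch4*, *Notum*, *Nrcam*, *Prx* and *Srebf1*. The 20 lost with matching on *Malat1* were *Acaca*, *Acvr1*, *Cadm2*, *Fzd6*, *H2-K1*, *Hes1*, *Hspa8*, *Ifi35*, *Ifit2*, *Kcnma1*, *Maml2*, *Mbp*, *Nefl*, *Nefm*, *Notch2*, *Notum*, *Pcdh9*, *Pcna*, *Prx* and *Vldlr*. The 12 lost with matching on stress genes were *Cadm2*, *Ccnb1*, *Ece1*, *Egr2*, *Fos*, *Fzd6*, *Jun*, *Nefl*, *Nefm*, *Notch4*, *Nrcam* and *Pmp22*. The 16 lost with DESeq2 were *Acaca*, *Cadm2*, *Ece1*, *Fzd1*, *Fzd6*, *Hes1*, *Ifit2*, *Kcnma1*, *Nefm*, *Notch2*, *Notch4*, *Notum*, *Pcna*, *Pmp22*, *Prx* and *Vldlr*. The 10 lost with library size alone were *Ece1*, *Hspa8*, *Mbp*, *Nefl*, *Nefm*, *Notch2*, *Notch4*, *Nrcam*, *Pcna* and *Pmp22*. The 13 lost with the numerator ranking were *Hes1*, *Hey1*, *Hspa8*, *Ifit2*, *Maml2*, *Nefl*, *Nefm*, *Notch4*, *Numb*, *Pcdh9*, *Pcna*, *Smad1* and *Vldlr*. The 5 lost with removal of *Pou3f1* cells were *Ccnb1*, *Notch2*, *Notch4*, *Nrcam* and *Prx*. Adjusted p-values are from edgeR. Leaving out either sample leaves no residual degrees of freedom, so it gave fold changes only and no calls.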
